A study of Mus musculus with 27 samples.

Results

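Brain-derived neurotrophic factor (BDNF) was given to mouse cortical cells whose transcription was inhibited with DRB, and polyadenylated RNA was compared with that of unstimulated cells under the same DRB treatment. Of 27 libraries in the study, 6 make this comparison, 3 after BDNF and 3 unstimulated. Of 59489 gene models in the deposited table, 13091 had an FPKM (fragments per kilobase of transcript, scaled to library size) of at least 1 in at least 3 of these 6 libraries. These 13091 are the members described here, and 11489 of them carry a gene symbol.

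The cells were wild-type primary cortical cells of embryonic day 16.5, kept for 14 days in culture. Every library of both groups came from cells given 50 µM DRB, labelled 2 h, so the unstimulated group is also inhibited. The BDNF group received 50 ng/mL BDNF, labelled 1 h. A further 3 libraries under DRB received 20 µM bicuculline, a blocker of GABA-A receptors, labelled 1 h in place of BDNF. The order in which inhibitor and stimulus were added is not given in the sources used here. A second experiment used 1 µM triptolide, labelled 3 h, with or without 20 µM bicuculline for 1 h, in whole cells, nuclei and cytosol. By its title, the study asks about intron retention and its dependence on the stimulus. With 1 value per gene in the deposited table, gene levels are compared here. The p-values measure the spread between these libraries, since nothing in the labels says whether they came from separate animals or preparations.

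BDNF binds the receptor tyrosine kinase TrkB, the product of Ntrk2, and activates the Ras-ERK, PI3K and phospholipase C-gamma pathways. In cortical neurons ERK and its downstream kinases phosphorylate the transcription factor CREB and the partners of SRF, which act on the promoters of immediate early genes such as Fos, Egr1 and Arc. DRB inhibits the kinase P-TEFb, which releases paused RNA polymerase into productive elongation, so mainly elongation is hindered, while triptolide acts earlier, at initiation.

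The 6 libraries held an estimated 86814395 to 147963086 fragments. Markers of excitatory neurons were present, with all 14 tested and a summed FPKM of 836 to 1146 in unstimulated and 835 to 1150 in BDNF libraries. Inhibitory neuron markers had 12 of 14 tested, at summed FPKM values of 421 to 528 and 432 to 527. Astrocyte markers summed to 936 to 1099 and 929 to 1032, and oligodendrocyte markers to 215 to 292 and 208 to 287. Progenitor and proliferation markers, with 12 of 14 tested, varied widely between libraries of a group, with sums of 86.9 to 261 and 83.1 to 231. Microglia had 3 of 14 markers tested and vascular or mesenchymal cells 1 of 14, Acta2. In none of these marker lists did a member pass the test in either direction. In bulk libraries, fewer cells of a type and less RNA per cell cannot be told apart. The first principal component held 52.7% of the variance and set replicate 2 of both groups apart from replicates 1 and 3. The second component held 22.6% and separated the 3 BDNF libraries from the 3 unstimulated ones.

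In the presence of DRB, genes called after BDNF were mainly higher. An entry is called here at a Benjamini-Hochberg adjusted p under 0.05 in limma on log2(FPKM + 0.5). By default this fit leaves out the pairing of libraries by replicate number. Same-numbered BDNF and unstimulated libraries did deviate together from their group means, with correlations of 0.797 to 0.902. Errors and adjusted p values printed without mention of the block ignore this pairing, so an entry not called there is not shown to be unchanged. Of the 13091 entries, 85 (0.649%) were called higher and 0 (0.0%) lower, while at an unadjusted p under 0.05 the numbers were 441 and 17. With the replicate number as a block, 192 (1.47%) were higher and 5 (0.0382%) lower, and the 192 included all 85. With the block and the 6 libraries alone, 368 were higher and 51 lower. Without BDNF replicate 3 the fit called 52 entries and without unstimulated replicate 3 it called 56, all higher. The change of the 85 ranged from 0.39 to 6.44 on the log2 scale with a median of 1.04. It was at least 1 for 49 of them, between 0.5 and 1 for 30, and under 0.5 for 6. The median over all 13091 entries was 0.00. For each of the 85, every BDNF library was above every unstimulated library, which was the case for 904 entries (6.91%) of all tested, while 211 (1.61%) had every BDNF library below.

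Many of the raised genes were at low levels in the inhibited cells. The 85 had a median unstimulated FPKM of 2.30, against 9.75 for all entries tested. Of the 85, 14 were under an FPKM of 1 in all 3 unstimulated libraries, as were 39 of all entries tested. The filter admits such genes only where BDNF libraries reach an FPKM of 1, so these levels are a description. Because an FPKM of 0.5 was added before taking logarithms, fold changes of such genes are understated. The median change of the 85 was 1.07 in replicate 1, 0.99 in replicate 2 and 1.20 in replicate 3. Replicate 2 gave the smallest of the 3 changes in 57 of the 85. In 6 leave-one-out fits, each without 1 of the 6 libraries, 51 of the 85 were called every time.

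The largest change was that of Arc, on chromosome 15, whose product regulates AMPA receptor endocytosis at synapses. Its FPKM was 0.844, 0.971 and 0.958 in unstimulated replicates 1 to 3, and 115, 106 and 150 after BDNF. The BDNF libraries were far above the unstimulated ones, with no overlap. The change was 6.44 ± 0.12 on the log2 scale (SE), which is 86.5-fold with 0.5 added, at a limma adjusted p of 3.95e-08.

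The AP-1 subunit genes Fos and Fosb came next among genes with a symbol. Fosb had an FPKM of 1.45, 4.24 and 1.70 in unstimulated cells and 46.5, 49.2 and 53.4 after BDNF, a change of 4.20 ± 0.28 with a limma adjusted p of 0.000151. Fos had 7.33, 16.9 and 11.1 in unstimulated cells and 171, 168 and 202 after BDNF, a change of 3.95 ± 0.24 with a limma adjusted p of 7.13e-05. In both genes the groups did not overlap, and unstimulated replicate 2 held the highest of the 3 unstimulated values. The change in replicate 2 was the smallest, 3.39 against 4.59 and 4.61 for Fosb and 3.28 against 4.45 and 4.12 for Fos. Fos and Fosb were called in each leave-one-out fit. When replicate 3 was left out of every group and the replicate block was kept, an alternative chosen after the data were seen, the adjusted p was 0.166 for Fos and 0.112 for Fosb.

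Of the 4 zinc finger factors of the EGR family, 3 were called higher. Egr1 had an FPKM of 25.8, 19.9 and 20.8 in unstimulated cells and 202, 176 and 237 after BDNF. The BDNF values lay well clear of the unstimulated ones, and the change was 3.18 ± 0.13 with a limma adjusted p of 6e-06. Egr4 had 4.12, 5.90 and 3.47 against 69.4, 67.8 and 77.0, a change of 3.87 ± 0.15 with a limma adjusted p of 4.91e-06. Egr2 rose from 0.717, 1.02 and 0.719 to 10.9, 9.68 and 12.1, a change of 3.11 ± 0.12 with a limma adjusted p of 4.25e-06. For both Egr4 and Egr2 the groups were separated without overlap. Egr3 had the highest unstimulated mean of the family, 29.8 ± 3.83 (SD, n = 3), and 43.7 ± 2.58 after BDNF. Its change of 0.55 ± 0.12 had a limma adjusted p of 0.128, and of 0.00551 with the replicate block. Nab2, which encodes a corepressor of EGR factors, was at 0.48 with an adjusted p of 0.416, and 0.00436 with the block.

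Npas4, a neuronal bHLH-PAS factor, had an FPKM of 3.57, 9.003 and 5.03 in unstimulated cells and 58.3, 89.0 and 76.1 after BDNF. Replicate 2 was the highest library in each group, and the groups did not overlap. The change was 3.63 ± 0.30 with a limma adjusted p of 0.000535. Among the orphan nuclear receptors, Nr4a1 rose from 10.3, 22.0 and 10.2 to 56.8, 78.5 and 67.6, a change of 2.30 ± 0.28 with a limma adjusted p of 0.00568. Nr4a3 changed by 0.74 ± 0.10, with an adjusted p of 0.0128, and was called in 2 of the 6 leave-one-out fits. Nr4a2 had means of 2.56 and 3.52 and was not called, with a limma adjusted p of 0.921 and 0.349 with the block.

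Ier2, an immediate early gene product found in the nucleus, had an FPKM of 1.19, 0.858 and 0.975 in unstimulated cells and 13.5, 14.4 and 17.8 after BDNF. No BDNF library approached the unstimulated range, and the change was 3.38 ± 0.13 with a limma adjusted p of 4.25e-06. Only 46.1% of this gene model lies within Ier2 in the GENCODE annotation, so its FPKM may include reads from outside the gene. The growth arrest genes Gadd45b and Gadd45g, known in neurons for a part in activity-linked DNA demethylation, also rose. Gadd45b went from 0.919, 1.63 and 1.11 to 8.20, 10.3 and 9.48, a change of 2.53 ± 0.19, and Gadd45g from 3.22, 4.95 and 4.67 to 17.5, 22.9 and 23.8, a change of 2.20 ± 0.17. Their limma adjusted p values were 0.000297 and 0.000387, and in neither gene did the groups overlap. Pim3, a serine/threonine kinase, rose from 3.04, 5.55 and 3.86 to 19.6, 21.2 and 20.0, a change of 2.19 ± 0.20 with a limma adjusted p of 0.000924.

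Snora31, also among the 15 largest rises with a symbol, is a small nucleolar RNA in an intron of Tpt1. Its FPKM was 1.15, 1.08 and 1.13 in unstimulated cells and 4.84, 6.70 and 8.34 after BDNF, a change of 2.11 ± 0.29 with a limma adjusted p of 0.012. The BDNF libraries varied more than the unstimulated ones but did not overlap with them. The gene model spans 112 bases, its call held in 1 of the 6 leave-one-out fits, and the highest adjusted p was 0.0756. It lies wholly within Tpt1 and the RNA was polyadenylated, so these values may include reads of the host and are not a measure of the small nucleolar RNA alone.

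**Figure D1:**
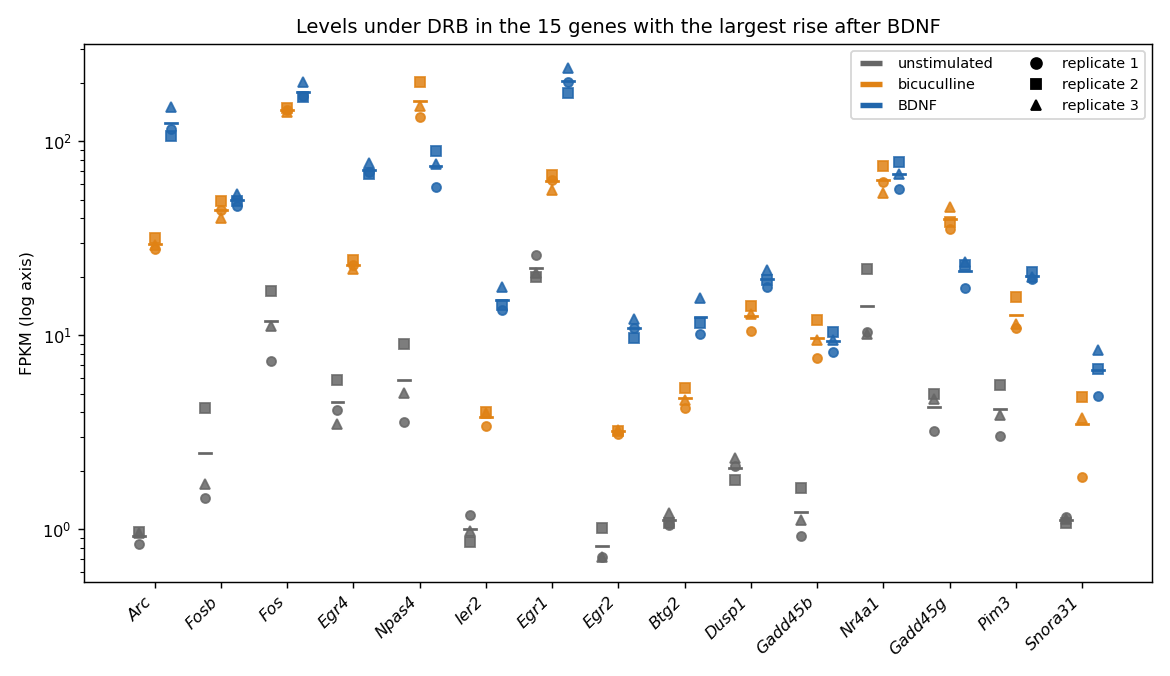
FPKM on a log axis of the 15 genes with the largest called rise, in each of the 9 libraries under DRB; grey marks are unstimulated, orange bicuculline and blue BDNF libraries, shapes give the replicate and bars the group mean. In each gene the 3 BDNF libraries sit above the 3 unstimulated ones, which the choice of genes required and which held for all 85 called entries. Values are 106 to 150 against 0.844 to 0.971 in Arc and 56.8 to 78.5 against 10.2 to 22.0 in Nr4a1.

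Some of the largest changes were in gene models that the table gives without a symbol, of which 12 are among the 85. The entry GSMG0038695, on mm10 chromosome 8 from 84972736 to 84978719, spans the whole of Junb and part of its neighbour Prdx2, which lies on the opposite strand. Its FPKM was 2.37, 3.52 and 2.404 in unstimulated cells and 75.1, 66.2 and 75.5 after BDNF. This is a change of 4.49 ± 0.15 with a limma adjusted p of 2.44e-06, and the groups were far apart. The table has no strand, so reads of both genes cannot be told apart in it. GSMG0028080, on chromosome 4 from 95050234 to 95052171, lies inside Jun, covers 60.8% of it, and overlaps the antisense gene Junos. It went from 11.8, 10.7 and 13.5 to 39.1, 33.1 and 43.6, a change of 1.64 ± 0.12 with a limma adjusted p of 0.000192. Jund, linked by position, rose by 0.55 ± 0.09 from a mean of 24.9 to 36.8 with a limma adjusted p of 0.0333. It was called in 0 of the 6 leave-one-out fits. The antisense gene Gm11175 overlaps 55.4% of this entry, and without strand the reads of both genes cannot be told apart.

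GSMG0010055, on chromosome 13 from 93361103 to 93362964, lies within an intron of Homer1, a scaffold gene of the postsynaptic density. It had an FPKM of 0.322, 0.678 and 0.564 in unstimulated cells and 2.83, 2.72 and 3.30 after BDNF, a change of 1.77 ± 0.18 with a limma adjusted p of 0.00202. The Homer1 model itself had means of 37.4 ± 3.65 and 44.1 ± 2.06 (SD, n = 3) and was not called. GSMG0056357, of 23 bases in Dusp5 on chromosome 19, changed by 1.45 ± 0.20 with a limma adjusted p of 0.0135, and was called in 2 of the 6 leave-one-out fits.

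The entry that matches 1700016P03Rik, on chromosome 11 from 75172475 to 75177633, is the host transcript of the neuronal microRNAs miR-212 and miR-132, which are known targets of CREB. It had an FPKM of 0.311, 0.453 and 0.482 in unstimulated cells and 6.34, 7.90 and 10.2 after BDNF. The lowest BDNF library was far above the highest unstimulated one. The change was 3.22 ± 0.21 with a limma adjusted p of 0.000106. The entry covers 58.5% of Ovca2, which lies on the opposite strand. Exons of Ovca2 make up 32.8% of the entry and exons of 1700016P03Rik 16.7%, and without strand their reads cannot be told apart. The mature microRNAs themselves were not measured in these polyadenylated libraries. The mature 3p sequences of the host, from RefSeq on GRCm38.p6, are shown because both carry the same seed, bases 2 to 8, which is in capitals:
miR-132-3p: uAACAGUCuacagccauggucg
miR-212-3p: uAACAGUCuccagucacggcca
A further microRNA host, Mir22hg, had means of 11.9 and 18.1, a change of 0.59 ± 0.14 with a limma adjusted p of 0.225, and 0.000862 with the replicate block. That model shares most of its length with Tlcd2.

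The immediate early genes were the list with the most called members. Of 50 names, 47 were found by symbol or position and 37 tested, of which 22 were called higher and 0 lower, and 4 of the 37, Arc, Ier5, Atf3 and Maff, passed the filter on low values through the BDNF libraries alone. The median change over the 37 was 1.03, against 0.00 over all entries, of which 0.649% were called higher. Others of the 37, such as Ier2 and Egr2, also needed BDNF libraries to pass the filter, so the count and median are a description. Beside the genes above, the called members were Btg2, Atf3, Maff, Sik1, Srf, Ier5, Klf6, Klf10 and Mcl1. The stress-linked factor Atf3 rose by 1.59 ± 0.20 from a mean of 0.331 to 1.99, and the small MAF factor Maff by 1.47 ± 0.09 from 0.489 to 2.25. Sik1, a kinase that restrains CREB coactivators, rose by 1.31 ± 0.12 from 1.58 to 4.65. The Krüppel-like factors Klf6 and Klf10 rose by 0.92 ± 0.07 and 0.91 ± 0.13, and Klf10 was called in 3 of the 6 leave-one-out fits. The blocked fit added Cyr61, Fbxo33, Per1, Fosl2, Egr3, Btg1 and Cited2, for 29 in all.

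Cyr61, a matricellular protein gene under SRF control, shows how far replicates differed in the unstimulated state. Its FPKM was 26.8, 6.89 and 21.5 in unstimulated cells and 73.6, 64.2 and 83.8 after BDNF, with no overlap. The low unstimulated value was in replicate 2, the replicate that also had an Acta2 FPKM of 2.67 and 1.19 where the others had 25.7 to 50.4. The change of Cyr61 was 2.17 ± 0.41, with a limma adjusted p of 0.0717, and 0.0204 with the block. The part of the lower Acta2 level in this result was not tested. Members of the list that neither fit called included Myc, at 0.08, Ier3, at 0.26, and Ctgf, at −0.40.

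Called genes included inhibitors of the ERK pathway. In the list of ERK and receptor tyrosine kinase feedback genes, 5 of 23 tested members were called higher, against 0.649% of all entries, and 0 lower. The median was 0.16. Dusp5 passed the filter on low values through the BDNF libraries alone, so the count and median are a description. Dusp1, a nuclear phosphatase of MAP kinases, had an FPKM of 2.10, 1.80 and 2.32 in unstimulated cells and 17.7, 19.3 and 21.6 after BDNF. All BDNF libraries were well above all unstimulated ones, and the change was 2.96 ± 0.13 with a limma adjusted p of 7.57e-06. Errfi1, a feedback inhibitor of EGF receptors, rose from 2.37, 2.18 and 1.90 to 6.79, 6.89 and 7.61, and the ERK phosphatase Dusp5 from 0.678, 0.671 and 0.582 to 2.54, 2.46 and 2.96. Their changes were 1.52 ± 0.09 and 1.46 ± 0.11, and the groups of neither overlapped. The cytoplasmic ERK phosphatase Dusp6 went from a mean of 18.7 ± 2.14 to 28.0 ± 0.909 (SD, n = 3), a change of 0.57 ± 0.09 with a limma adjusted p of 0.0178, called in 1 of the 6 leave-one-out fits. The pseudokinase gene Trib1 changed by 0.64 ± 0.09 with an adjusted p of 0.0134, called in 0 of those fits. The blocked fit added Spry2, at 0.39, and Spry3, at 0.52, both inhibitors of receptor tyrosine kinase signalling.

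Among genes known to rise later after activity, 6 of 29 tested were called higher, against 0.649% of all entries, and 0 lower. The median was 0.18. Of the 29, Sertad1 and Gpr3 passed the filter on low values through the BDNF libraries alone, so the count and median are a description. The cell cycle regulator Sertad1 rose by 1.92 ± 0.17 from 0.399, 0.717 and 0.412 to 4.19, 2.77 and 2.99. The poly-ADP-ribose polymerase family gene Tiparp rose by 1.66 ± 0.14 from a mean of 3.06 to 10.7, and the bZIP repressor Nfil3 by 1.42 ± 0.16 from 4.65 to 13.1. Ppp1r15a, whose product directs dephosphorylation of eIF2-alpha, rose by 0.89 ± 0.08, the polo-like kinase Plk3 by 0.79 ± 0.11 and Midn by 0.50 ± 0.05. Plk3 was called in 2 of the 6 leave-one-out fits. With the replicate block, Gpr3, Vgf, Ifrd1 and Plk2 were added. Vgf, a neuropeptide precursor and known BDNF target, had an FPKM of 33.4, 23.6 and 34.6 in unstimulated cells and 46.1, 51.8 and 53.3 after BDNF. Its change was 0.73 ± 0.18 with a limma adjusted p of 0.259, and 0.0414 with the block.

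Counts in the pathways that carry the BDNF signal were 0 or 1 a list, and with 0.649% of all entries called, lists of this size hold few calls or none in any case. Of 10 tested neurotrophin and receptor genes, 0 were called in limma with or without the block, and 0 had an unadjusted p under 0.05. Ntrk2 was at an FPKM of 240, 165 and 210 in unstimulated cells and 220, 165 and 219 after BDNF, so the groups overlapped almost fully, with a change of −0.02 ± 0.17. Bdnf was at 1.74, 1.79 and 1.85 against 1.86, 3.28 and 2.01, with the highest value in replicate 2. Its change of 0.30 ± 0.16 had a limma adjusted p of 1, and of 0.64 with the block. Ngfr, which encodes the p75 receptor, was under the filter, at 0.609 to 0.983 in unstimulated and 0.832 to 1.06 in BDNF libraries. Of 36 tested members of the TrkB to ERK cascade 0 were called, and the blocked fit called the adaptor Crkl, at 0.31. Of 34 tested members of the PI3K and mTOR branch 1 was called, Ddit4, an inhibitor of mTOR complex 1, at 0.39 ± 0.07 with a limma adjusted p of 0.0374 and calls in 1 of the 6 leave-one-out fits. Of 27 tested phospholipase C and calcium genes 0 were called with or without the block.

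With 0.649% of all entries called higher, Srf was called among 21 tested CREB and SRF factors. Its FPKM was 11.8, 9.47 and 11.7 in unstimulated cells and 25.2, 19.5 and 25.7 after BDNF, with replicate 2 lowest in both groups and no overlap. The change of Srf was 1.05 ± 0.13 with a limma adjusted p of 0.00627. Creb1 was at 7.69, 8.83 and 7.85 against 7.67, 8.17 and 8.13, with overlapping groups and a change of −0.02 ± 0.10. With the block Atf4 was added, at 0.32, from a mean of 106 ± 0.456 to 132 ± 6.22 (SD, n = 3). Of 19 tested cytoskeletal targets of SRF 0 were called with or without the block, and their median was −0.07.

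In the list of AU-rich mRNA decay and deadenylation genes, 2 of 31 tested members were called higher, against 0.649% of all entries, and 0 lower. The list was chosen with earlier results of these data known, and Btg2 is also in the immediate early list, so the count is a description. The called members were Btg2 and Tob1, which encode antiproliferative proteins that bind the CCR4-NOT deadenylase. Btg2 rose from an FPKM of 1.05, 1.08 and 1.21 to 10.1, 11.6 and 15.5, a change of 2.98 ± 0.15 with a limma adjusted p of 2.53e-05. Tob1 rose from 3.37, 4.33 and 3.95 to 15.3, 16.6 and 18.5, a change of 1.98 ± 0.11 with a limma adjusted p of 5.96e-05. In neither gene did the groups overlap. The block added their relatives Btg1, at 0.43, and Tob2, at 1.13. The median of this list was 0.07, and the 10 tested subunits of the deadenylases themselves, such as Cnot1, at 0.03, and Pan3, at 0.09, were not called.

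In the stress and unfolded protein response list 4 of 25 tested members were called higher, against 0.649% of all entries, and 0 lower. The median was 0.19. Of the 4, Atf3 passed the filter on low values through the BDNF libraries alone, so the count and median are a description. The Hsp40 cochaperone Dnajb1 rose from 8.73, 7.99 and 8.17 to 33.4, 25.9 and 34.6, a change of 1.84 ± 0.11 with a limma adjusted p of 5.96e-05 and no overlap. Txnip, an inhibitor of thioredoxin, rose from 2.13, 1.56 and 2.38 to 5.87, 5.02 and 9.59, a change of 1.501 ± 0.22 with a limma adjusted p of 0.0164, called in 2 of the 6 leave-one-out fits. Atf3 and Ppp1r15a, given above, were the others, and the block added Atf4 and Herpud1.

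Lists tied to the inhibitor and to nuclear RNA had no called member, which at 0.649% of all entries called says little of lists this short. Of 32 tested elongation control genes 0 were called with or without the block, and 2 had an unadjusted p under 0.05, both higher. Hexim1, an inhibitor of P-TEFb, was at 4.86, 4.70 and 4.91 in unstimulated cells and 4.60, 4.63 and 4.38 after BDNF. The 3 BDNF values of Hexim1 lay just below the 3 unstimulated ones, with a change of −0.08 ± 0.08 and a limma adjusted p of 1. Of 23 tested CLK kinase and SR protein genes 0 were called with or without the block. Clk1 had means of 14.98 and 18.03, a change of 0.26 ± 0.09, and Clk4 of 12.2 and 13.1, a change of 0.10 ± 0.08, both with a limma adjusted p of 1. Among 8 tested nuclear long noncoding RNAs 0 were called either way, and Meg3 was at 156, 333 and 204 against 149, 319 and 195, so the spread between replicates far exceeded its change of −0.06.

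The lists of glutamatergic synapse, GABAergic synapse, interneuron peptide, voltage-gated channel, ribosomal protein and nuclear-encoded oxidative phosphorylation genes also had 0 called members, with or without the block. Their median changes lay between −0.04 and 0.06. With the block the excitatory marker Neurod2 was called, at 0.42, from an FPKM of 12.03, 11.7 and 11.9 to 17.5, 14.96 and 15.9. It was the 1 marker of any cell type that either fit called.

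**Figure D2:**
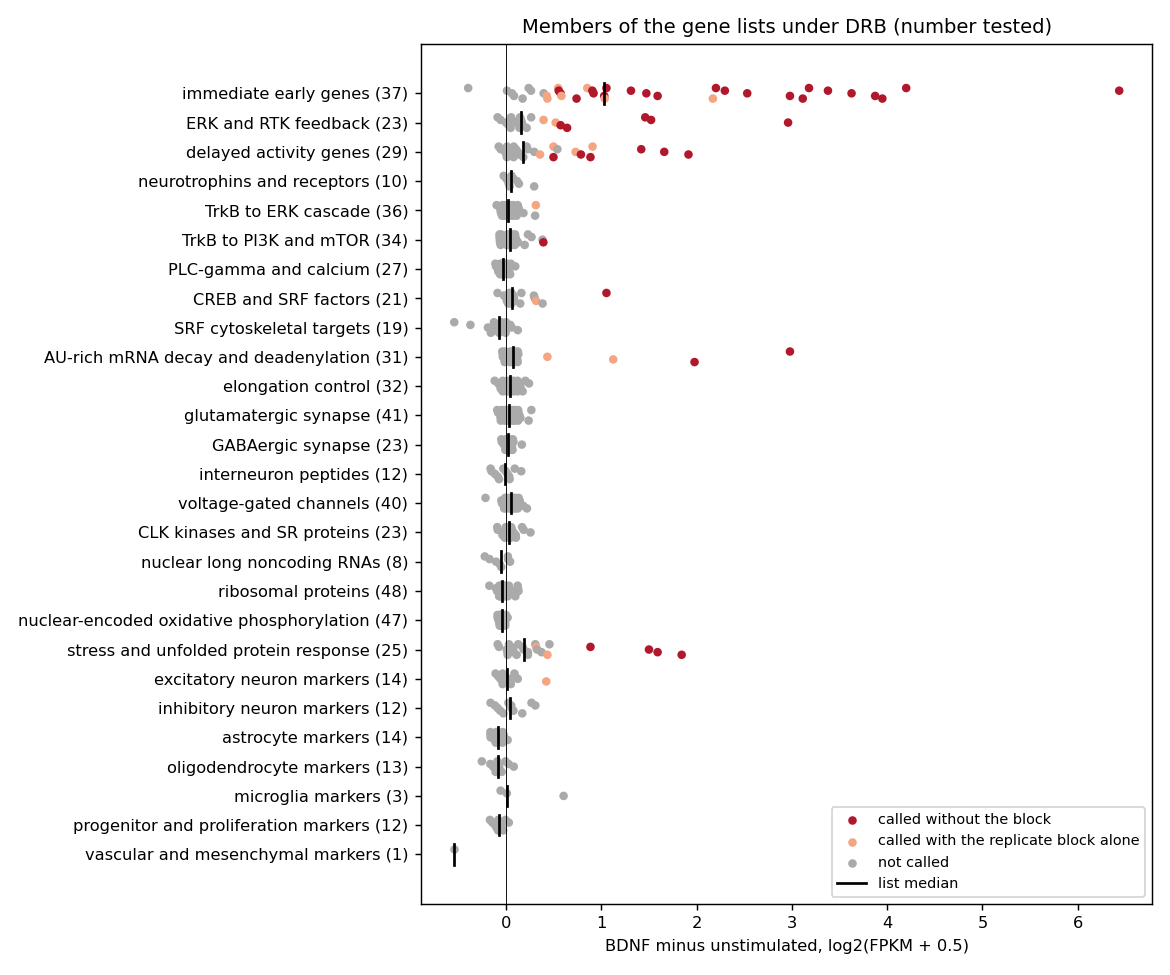
Change after BDNF on the log2(FPKM + 0.5) scale for each tested member of 27 gene lists, with the number tested in parentheses; dark red points were called without the block, light ones with the replicate block alone, grey ones in neither, and black bars are list medians. Called members lie in the immediate early, feedback, delayed, deadenylation and stress lists, plus Srf and Ddit4, and no list holds a member called lower.

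Of the 85 raised entries, 37 belonged to at least 1 list. The following lie outside the lists and were named after their values were seen, so they stand for no theme. The Polycomb gene Cbx8 rose by 1.40 ± 0.16 from 2.08, 1.79 and 2.64 to 6.91, 5.17 and 7.53. The ETS-domain repressors Etv3 and Erf rose by 1.03 ± 0.09 and 0.64 ± 0.06, Erf from a mean of 12.4 ± 0.201 to 19.6 ± 0.517 (SD, n = 3). The MAX-binding repressor Mnt rose by 0.73 ± 0.08 and the NF-kappa-B subunit Rela by 0.53 ± 0.07. The small GTPase gene Arl4d rose by 1.80 ± 0.18 from 3.47, 4.96 and 2.84 to 14.3, 13.3 and 14.3. Mknk2, a kinase activated by ERK that phosphorylates eIF4E, rose by 0.46 ± 0.07 from 12.5 to 17.4. Rela was called in 2 and Mknk2 in 1 of the 6 leave-one-out fits.

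With the replicate block 5 entries were called lower, and none met the condition for named genes. They were Dynlrb2, at −0.72, 1500015O10Rik, at −0.70, GSMG0005252, at −0.52, Snhg7, at −0.39, and Naaa, at −0.31, all named after their values were seen. Snhg7, a host of small nucleolar RNAs, had an FPKM of 2.20, 2.49 and 2.30 in unstimulated cells and 1.45, 1.80 and 1.72 after BDNF, without overlap. Dynlrb2, a dynein light chain gene, had 2.11, 0.708 and 2.04 against 1.24, 0.251 and 0.885, lower in each replicate but with overlapping groups. 1500015O10Rik also overlapped, with 6.72, 0.889 and 10.3 against 4.24, 0.441 and 5.23.

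The raised genes spanned less of the genome than the genes tested as a whole, a description made with no test. Of the 85, 74 are protein-coding in GENCODE M21, and their models spanned a median of 7.32 kb with a median of 4 exons in the longest transcript, against 26.7 kb and 10 exons for the 11140 protein-coding genes tested. Spans under 10 kb made up 63.5% of the 74 and 22.3% of all, and spans over 30 kb made up 5.41% and 46.1%. The longest raised model was 73.8 kb. The 87 protein-coding genes that the block alone called higher had a median of 10.1 kb. Levels before stimulation differed as well, as given above, and the part of level in this difference was not tested.

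**Figure D3:**
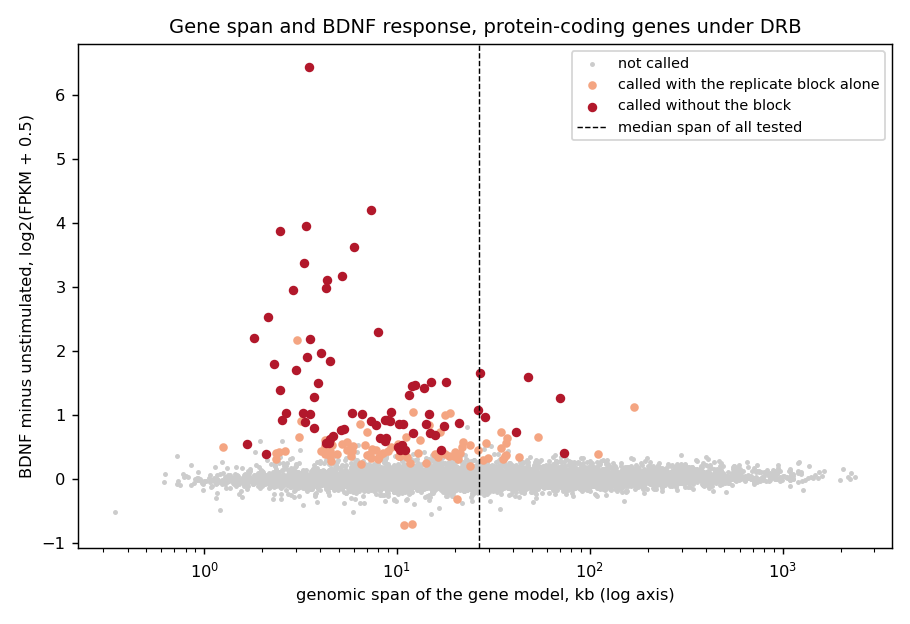
Change after BDNF on the log2(FPKM + 0.5) scale against the genomic span of the gene model in kb (log axis) for the 11140 protein-coding genes tested; dark red points were called without the block, light ones with the block alone, and the dashed line is the median span of 26.7 kb. Of the 74 dark points, 47 lie under 10 kb and 4 beyond 30 kb.

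Promoter sequence was described for the 56 raised entries with a RefSeq window on GRCm38.p6, of 250 bases upstream of the start. The full cAMP response element TGACGTCA, the site of CREB, occurred on either strand in 14.3% of these windows and in 3.09% of the 8384 windows of all entries tested. Its core TGACG, which also lies within each full element, occurred in 57.1% and 29.1%. The CArG box, the site of SRF, occurred in 7.14% and 1.06%. The AP-1 motif TGANTCA occurred in 0 of the 56 windows, or 0%, and in 3.40% of all. The EGR motif GCGNGGGCG occurred in 16.1% and 9.77%, the GC box GGGCGG in 69.6% and 62.6%, and the letters TATAAA in 12.5% and 5.37%. A match describes the letters in this window, and no binding was measured. The windows of 6 raised genes that hold these motifs are shown, 5′ to 3′ on the gene's strand, with the CRE core, full CRE or CArG box in capitals.
Fos, chr12:85473640-85473889, + strand: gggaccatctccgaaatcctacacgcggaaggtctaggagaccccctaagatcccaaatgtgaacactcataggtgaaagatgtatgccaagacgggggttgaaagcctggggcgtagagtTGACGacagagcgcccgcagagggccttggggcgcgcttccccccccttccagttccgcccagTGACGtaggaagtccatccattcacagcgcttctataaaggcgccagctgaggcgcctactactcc
Egr4, chr6:85513590-85513839, − strand: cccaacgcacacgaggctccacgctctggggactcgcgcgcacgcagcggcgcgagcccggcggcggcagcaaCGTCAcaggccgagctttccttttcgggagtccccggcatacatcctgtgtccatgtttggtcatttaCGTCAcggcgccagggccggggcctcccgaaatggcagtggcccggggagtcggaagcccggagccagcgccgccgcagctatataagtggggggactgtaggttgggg
Egr2, chr10:67537619-67537868, + strand: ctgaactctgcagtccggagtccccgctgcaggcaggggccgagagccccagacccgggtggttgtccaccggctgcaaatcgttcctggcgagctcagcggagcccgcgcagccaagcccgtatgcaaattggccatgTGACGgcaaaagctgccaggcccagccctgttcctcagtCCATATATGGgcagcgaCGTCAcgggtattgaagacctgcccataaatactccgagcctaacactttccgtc
Npas4, chr19:4989972-4990221, − strand: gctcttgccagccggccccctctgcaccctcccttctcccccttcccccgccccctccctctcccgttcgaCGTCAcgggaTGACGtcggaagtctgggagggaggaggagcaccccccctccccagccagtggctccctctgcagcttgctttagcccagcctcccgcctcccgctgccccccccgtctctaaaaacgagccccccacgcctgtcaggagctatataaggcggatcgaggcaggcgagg
Dusp1, chr17:26508473-26508722, − strand: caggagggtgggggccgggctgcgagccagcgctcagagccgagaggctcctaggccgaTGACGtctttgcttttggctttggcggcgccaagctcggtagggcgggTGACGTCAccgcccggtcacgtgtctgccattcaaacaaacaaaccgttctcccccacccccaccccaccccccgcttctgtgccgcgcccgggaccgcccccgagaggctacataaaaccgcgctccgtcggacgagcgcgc
Srf, chr17:46556163-46556412, − strand: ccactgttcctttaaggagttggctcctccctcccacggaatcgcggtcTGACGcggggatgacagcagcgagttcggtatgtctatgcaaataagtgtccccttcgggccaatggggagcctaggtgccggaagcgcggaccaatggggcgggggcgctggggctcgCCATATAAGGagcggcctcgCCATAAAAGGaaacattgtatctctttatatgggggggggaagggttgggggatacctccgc
Dusp1 holds the full element, Egr2 a CArG box between 2 CRE cores, and Srf 2 CArG boxes, while the windows of Fos, Egr4 and Npas4 hold 2 CRE cores each. The Npas4 window starts inside the FASTDB model, 345 bases from its end. Among the other large rises, Btg2 and Arl4d also hold a full element, and Nr4a1 holds 4 cores.

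BDNF and bicuculline, given for the same time under DRB, were compared directly. Of 13091 entries, 19 (0.145%) were higher after BDNF and 2 (0.0153%) lower, with 271 and 73 at an unadjusted p under 0.05. With the replicate block the counts were 63 (0.481%) and 11 (0.084%). The 21 calls fell to 9 without BDNF replicate 1, BDNF replicate 3 or bicuculline replicate 1, and to 12 without bicuculline replicate 3. All 19 were among the 85 raised by BDNF. Entries had to reach an FPKM of 1 in BDNF or unstimulated libraries, so genes high after bicuculline alone were not tested, and the counts of higher and lower calls should not be set against each other. Since the 85 were chosen for their values in the same BDNF libraries, their median difference of 0.52 from bicuculline is a description.

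The largest called differences from bicuculline were those of Arc, Ier2, the entry that spans Junb, Egr1, Egr2 and Egr4, in that order. Arc had a mean FPKM of 29.7 ± 1.998 after bicuculline and 124 ± 23.1 after BDNF (SD, n = 3), a difference of 2.03 ± 0.12 with a limma adjusted p of 0.000806. Ier2 was at 3.80 against 15.2, a difference of 1.87 ± 0.13, and Egr1 at 62.1 against 205, a difference of 1.71 ± 0.13. The entry that spans Junb differed by 1.80 ± 0.15, Egr2 by 1.62 ± 0.12 and Egr4 by 1.61 ± 0.15. By their errors neighbours in this order are not told apart. These differences were called in each of the 6 leave-one-out fits. Btg2 differed by 1.29 ± 0.15 with a limma adjusted p of 0.0151, called in 4 of the 6 fits, and not without bicuculline replicate 1 (0.0981) or 3 (0.111). Dnajb1 differed by 1.14 ± 0.11, Klf10 by 1.05 ± 0.13 and Tob1 by 0.98 ± 0.11, and Klf10 and Tob1 were called in 1 of the 6 fits. Klf10 had an unstimulated mean of 6.41 and was at 5.77 after bicuculline and 12.4 after BDNF.

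For other early genes the difference between the stimuli did not pass the test. Fos was at 144 ± 3.04 after bicuculline and 180 ± 18.9 after BDNF (SD, n = 3), a difference of 0.31 ± 0.24. Fosb was at 44.4 and 49.7, a difference of 0.16 ± 0.28, Nr4a1 at 63.5 and 67.6, a difference of 0.09 ± 0.28, and Gadd45b at 9.66 and 9.34, a difference of −0.03 ± 0.19. None of these was called with or without the block, which does not show that both stimuli act alike on them.

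Lower after BDNF were Plk2, a polo-like kinase of synaptic scaling, and Trib1. Plk2 was at 36.4 ± 2.54 after bicuculline and 21.9 ± 1.23 after BDNF (SD, n = 3), a difference of −0.72 ± 0.07 with a limma adjusted p of 0.00495. Trib1 was at 4.09 and 1.94, a difference of −0.91 ± 0.09 with a limma adjusted p of 0.00572, called in 3 of the 6 leave-one-out fits. Npas4 was at 162 ± 35.2 and 74.5 ± 15.4, with every bicuculline library above every BDNF one. Its difference of −1.12 ± 0.30 had a limma adjusted p of 0.688, and of 0.0138 with the replicate block. Gadd45g was at 39.7 and 21.4, a difference of −0.88 ± 0.17 with a limma adjusted p of 0.201, and 0.00501 with the block. Maff was at 3.52 and 2.25, and its adjusted p was 0.098, and 0.0285 with the block.

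**Figure D4:**
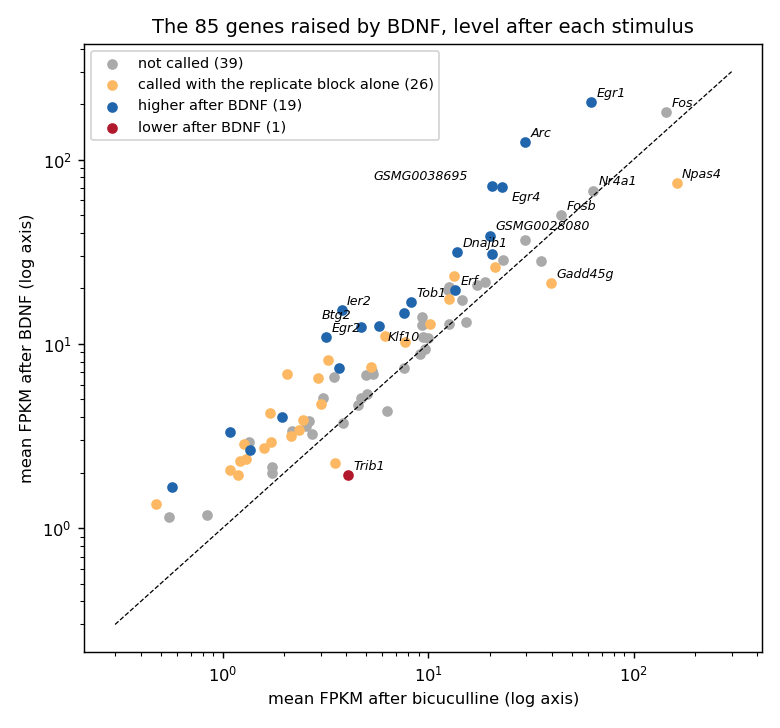
Mean FPKM after BDNF against mean FPKM after bicuculline, both on log axes, for the 85 entries raised by BDNF; blue and red points were called higher or lower after BDNF, orange ones with the replicate block alone, and the dashed line marks equal levels. Arc and Egr1 lie above the line, at 124 against 29.7 and 205 against 62.1, and Npas4 and Trib1 below it, at 74.5 against 162 and 1.94 against 4.09.

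The triptolide experiment shares no library with the BDNF comparison and tested bicuculline, not BDNF. In whole cells 0 of 13091 entries (0.0%) were called in either direction in limma, with 1063 higher and 237 lower at an unadjusted p under 0.05. With the replicate block 71 (0.542%) were higher and 22 (0.168%) lower, and 12 of the 85 were among the 71. Over the 85 the median change was 0.19, against 0.04 over all entries, and 72 were above 0, or 84.7%, against 63.5% of all entries. Fosb was at a mean FPKM of 0.424 without and 1.41 with bicuculline, a change of 1.04 ± 0.15 with a blocked adjusted p of 0.00142. Fos was at 3.03 and 5.42, Arc at 1.47 and 2.73, and Egr1 at 3.81 and 5.33, changes of 0.75 ± 0.18, 0.69 ± 0.27 and 0.43 ± 0.19. Ier2 was at 0.273 and 0.364, a change of 0.16 ± 0.13 that neither fit called. Inhibitor, time and stimulus all differ from the BDNF comparison, so no difference between the experiments was tested.

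**Figure D5:**
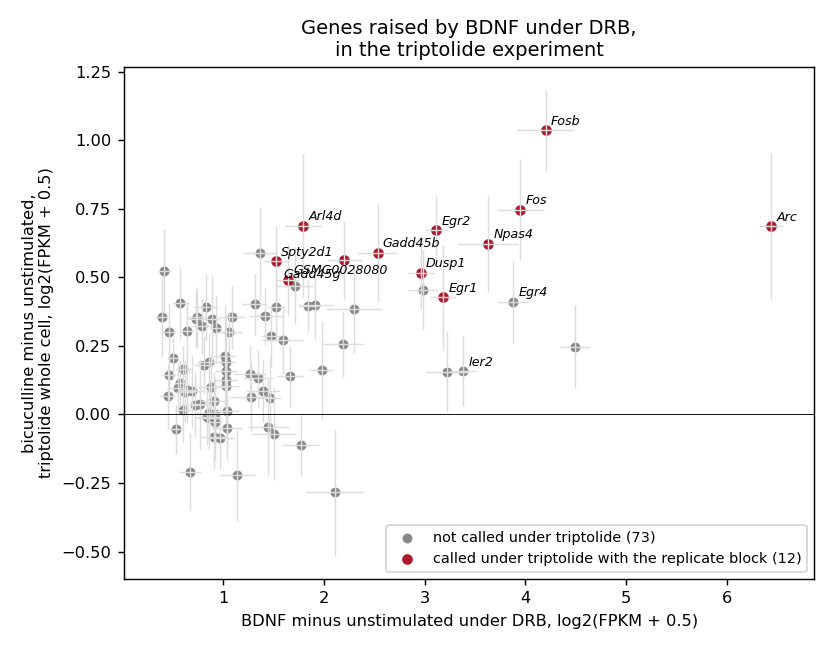
Change with bicuculline in whole cells under triptolide against the change with BDNF under DRB, both on the log2(FPKM + 0.5) scale, for the 85 entries raised by BDNF; red points were called under triptolide with the replicate block and thin lines are standard errors. Of the 85 points, 72 (84.7%) lie above 0 on the vertical axis, where 63.5% of all entries lie, up to 1.04 in Fosb.

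In unstimulated cells under triptolide, 58 of the 85 had enough signal in both fractions to compare nucleus with cytosol. The nuclear level was the higher one in 74.1% of them, with a median log2 difference of 0.38, against 50.6% and 0.01 over 12780 entries. FPKM is relative within each fraction, so these differences do not give absolute amounts. The differences ranged from −0.76 in Ddit4 to 2.17, with Npas4 at 1.00 and Btg2 at 1.00, while Fos was at −0.35, Egr4 at −0.30 and Egr1 at −0.04.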

How the data were processed

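Polyadenylated RNA was prepared from 200 ng of total RNA with a stranded kit, per the labels' protocols. The deposited table holds the authors' FPKM values, 1 per FASTDB gene model on mm10 and library. FastQC, Picard, SAMtools, STAR 2.4.0 and mm10 are named in the submitters' processing notes, while the program that counted reads, its use of strand and its treatment of reads with several positions are not stated there or in the labels. Without strand, antisense and overlapping genes cannot be told apart, and intronic entries may share reads with their host.

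Values were taken as deposited, with 0.5 added, on the log2 scale. Depth was estimated from the steps of low FPKM values of single-exon models, of which 57.1% lay within 0.02 of a whole fragment, so counts were not recovered and no count test was run. At that depth 10 fragments on 2 kb give an FPKM of 0.0338 to 0.0576. limma 3.58.1 in R 4.3.3 (trend and robust moderation) was fitted to the 9 DRB libraries with 1 mean per group, and to the 6 whole-cell triptolide libraries. The fit of the 9 DRB libraries without the block was tested on simulated libraries that had no shared replicate effect. The blocked fit was not tested in this way. Same-numbered libraries (N7, N8 and N10 in the file's column names) deviated together from their group means, with correlations of 0.814, 0.902 and 0.797 between BDNF and unstimulated, 0.738, 0.775 and 0.459 between BDNF and bicuculline, and 0.609, 0.660 and 0.498 between the triptolide groups. The numbers were therefore taken as pairing the samples, although the labels do not say what they share, and blocked values are printed where they change a call.

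Of 1602 tested entries without a symbol, 207 were linked to a GENCODE M21 gene that they overlapped by at least 80% of both spans, on either strand since the table gives none. Promoter and microRNA sequences are from RefSeq on GRCm38.p6. The 27 lists hold 681 names. Members, lists and tests were chosen with earlier results of these data known. Named with values were the 15 largest called rises and the 6 largest differences from bicuculline in each direction, with a symbol that is not provisional, a mean FPKM of at least 5 in a group and no overlap, plus called list members, the 5 largest entries without a symbol and a fixed set of signalling, factor and nuclear RNA genes. Figures used Python 3.11.15 and matplotlib 3.10.9. A few single genes are not reported here, while counts cover all entries.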

Additional observations from a re-analysis of the deposited data

How the results depend on the processing

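The 85 calls after BDNF became 70 with the 6 libraries alone and stayed at 85 with a pseudocount of 0.1 or 1. Median-ratio scaling gave 84, quantile scaling 76, and no trend or robust moderation 97. With a value above 0 in 3 libraries there were 99 calls, 95 higher and 4 lower, which included 73 of the 85. With the replicate block, which uses the pairing of same-numbered libraries, the number was 197, with the block and the 6 libraries alone 419, of which 368 were higher and 51 lower, and with a mean FPKM of at least 5 it was 46. Leaving out 1 library gave 52 to 70 calls. Alternatives chosen after seeing the data left out 1 replicate number from every group with the block kept. They gave 42 calls without replicate 1, 112 without replicate 2 and 202 without replicate 3. Of the 112 calls 2 were lower, and of the 202 calls 16 were lower.

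For BDNF against bicuculline the 21 calls became 74 with the replicate block, 6 with the 6 libraries alone and 9 to 22 without 1 library. Under triptolide 0 calls became 93 with the block, and 2, both lower, when entries were filtered on the triptolide libraries themselves, while leaving out 1 library gave 0. The 74 and 93 calls with the block came from the same libraries and entries as the 21 and 0 calls. The other settings changed the libraries or entries fitted, and the cause of the shifts was not tested.

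Among 36 single genes, 624 recomputed values kept side and direction, 21 lost and 3 gained a call, and 9 changed sign. The sign changes were of genes not called, without 1 library or replicate: Ntrk2 ranged from −0.17 to 0.11, Creb1 from −0.057 to 0.037 and Meg3 from −0.37 to 0.24. Scaling moved the median of all entries by less than the smallest called change. With 3 libraries a group, small changes and genes near an FPKM of 1 are least certain.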
